A study of Arabidopsis thaliana with 11 samples.

Results

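Transcript levels in tetraploid seedlings of Arabidopsis thaliana were compared with those in triploid seedlings carrying the title code TFE. The 6 arrays concerned, 3 tetraploid and 3 triploid TFE, were chosen by their title codes out of 11, and 22746 of the 22810 probe sets on each array, those that are not control probe sets, were fitted. All groups were of the ecotype C24, a natural accession of the species, with the same stock code. RNA came from whole plants at developmental stage 1.02, grown on agar with a 16 h day and an 8 h night. Nights were cooler than days, at the same temperatures in all groups. The tetraploids (4 chromosome sets) had been made with colchicine, a drug that blocks the spindle so that cells double their chromosomes. The triploids (3 sets) came from crosses between a tetraploid and a diploid parent. A further triploid group, TME (3 arrays), has the same source label, and the labels do not say what sets it apart from TFE or what the codes stand for. The diploids (2 sets) gave 2 arrays. The series was made to follow transcript levels as ploidy changes. The step from TFE to tetraploid adds 1 chromosome set and also replaces seedlings of a cross between ploidies with seedlings of an established even ploidy, and these cannot be told apart here.

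An extra chromosome set adds a copy of every nuclear gene at once, so the balance between nuclear genes is kept, and cells of higher ploidy are usually larger. The plastid genome is separate: each cell holds many plastids with many copies of a small circular chromosome, which encodes core subunits of the photosystems, the NDH complex, the ATP synthase and the plastid ribosome, while most plastid proteins are encoded in the nucleus. Seedlings also carry transcripts that move within minutes to hours after touch, wounding, cold, darkness or loss of sugar.

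The values are MAS5 signals, linear intensities summarised per probe set and scaled so that every array has about the same mean. All differences are therefore relative to the rest of the array, and a change in total RNA per cell could not be seen. Differences are given on the log2 scale as tetraploid minus TFE, so that 1 is a doubling of the signal, with the standard error of the limma fit, and a probe set is called where its Benjamini-Hochberg adjusted p over all 22746 probe sets is under 0.05. Triploid TFE replicate 3 stood apart: its rank correlation with the other 5 arrays was 0.878 to 0.884, against 0.957 to 0.970 among those 5, and its median signal was 54.4 where the other TFE arrays had 43.0 and 44.5. The main results are therefore given with and without it, and some smaller ones with all 6 arrays only. Markers of the labelled tissue were present on the 6 arrays: RCA, the Rubisco activase of green tissue, had signals of 4743 to 6785, and PYK10, an abundant beta-glucosidase of roots, had 3052 to 4070. The labels do not say whether replicates were sown separately, and the p-values then cover only array-to-array spread, part of which may be technical.

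Between tetraploids and triploid TFE, 67 probe sets were called (0.295% of those fitted). Of these, 56 were higher in tetraploids (0.246%) and 11 were lower (0.0484%). On all 67 the 3 tetraploid and 3 TFE arrays did not overlap, which was true of 14% of all probe sets. The calls were made on these same arrays, so this is a description and adds nothing to them. The median size of the called differences was 1.02, and 37 exceeded a doubling. Over the whole table the median difference was -0.05, with 44.5% of probe sets higher in tetraploids, and it was 0.003 without TFE replicate 3. Without TFE replicate 3, 55 probe sets were called (0.242%), 46 higher (0.202%) and 9 lower (0.0396%). Of the 67, 45 were still called. All 67 kept their direction, which was fixed in advance because their arrays did not overlap. The number of calls rested more on other arrays: it was 13 without tetraploid replicate 3, 36 without tetraploid replicate 1 and 101 without TFE replicate 1. It fell to 0 with no intensity trend in the variances, although 2044 probe sets then had an unadjusted p under 0.05, and the smallest adjusted p was 0.119.

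A single gene could be named for 29 of the 67 calls, 23 of them higher and 6 lower. The 12 largest named rises fell between 1.02 and 2.37 and included stress and hormone regulators, transcripts of carbon starvation, and genes of little-known function. By the rule that chose them, none overlapped between the groups.

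PUB19, a U-box E3 ubiquitin ligase that acts in responses to abscisic acid and drought, showed the largest named rise. Its signal was 343, 174 and 229 in tetraploid replicates 1 to 3 and 39.2, 80.9 and 31.2 in TFE. The lowest tetraploid array lay far above the highest TFE array, and tetraploid replicate 1 was the highest of all. The means were 249 ± 86.3 (SD, n = 3) and 50.4 ± 26.7 (SD, n = 3), a log2 difference of 2.37 ± 0.31 (SE; adjusted p = 0.0025), or 2.08 without TFE replicate 3 (adjusted p = 0.013).

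ORA47, an AP2/ERF transcription factor tied to jasmonate synthesis and signalling, followed. It had 308, 216 and 281 in tetraploids and 39.8, 99.2 and 52.5 in TFE, and TFE replicate 2 was the TFE array nearest to the tetraploids. The log2 difference was 2.17 ± 0.31 (adjusted p = 0.0052), or 2.08 without TFE replicate 3 (adjusted p = 0.035). AR781, a further early stress transcript, had 85.5, 103 and 126 against 42.4, 58.6 and 39.98. It rose by 1.16 ± 0.21 (adjusted p = 0.027), and without TFE replicate 3 the difference of 1.05 missed the threshold (adjusted p = 0.059).

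Of the 10 measured genes of touch, wounding and early stress, 9 were higher in tetraploids and 2 were called, PUB19 and AR781. Over all probe sets 44.5% were higher and 0.246% were called higher. This list was chosen with earlier results of these data known, so the counts are descriptions and not a test of the group. Without TFE replicate 3 all 10 were higher, and of the 2 only PUB19 was still called. The median difference of the 10 was 0.59, and -0.05 over all probe sets. The other 8 did not pass the test, with differences from -0.15 for PUB22, a close relative of PUB19, to 2.23 for the calmodulin-like gene CML37, whose signals were 0.273 to 6.26 and too dim to weigh. STZ, a zinc-finger repressor of stress genes, had 208, 138 and 111 against 66.3, 132 and 116, so its groups overlapped (0.55 ± 0.31, adjusted p = 0.54). The other jasmonate gene measured, the defensin PDF1.2, was dim, with signals of 3.38 to 12.0, and did not pass (adjusted p = 0.94).

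Transcripts known to mount in darkness or when sugar runs short were the next group. AT3G15450, of the aluminium-induced protein family and a common marker of carbon starvation, had 531, 483 and 803 in tetraploids and 208, 280 and 236 in TFE. The lowest tetraploid array was well above the highest TFE array, and the log2 difference was 1.301 ± 0.17 (adjusted p = 0.0025), or 1.29 without TFE replicate 3 (adjusted p = 0.013). AT2G20670, which encodes a protein of the DUF506 family, had 380, 378 and 449 against 166, 164 and 61.3. Here TFE replicate 3 was far below the other TFE arrays, and leaving it out lowered the difference from 1.76 ± 0.29 (adjusted p = 0.014) to 1.28 (adjusted p = 0.0075). Of the 25 genes of this list 5 were measured, and all 5 were higher in tetraploids, 2 of them called. Over all probe sets 44.5% were higher and 0.246% were called higher. The list was chosen with earlier results of these data known, so the counts are descriptions. The median of the 5 was 1.28, beside -0.05 over all probe sets. It became 0.69 without TFE replicate 3 and 0.16 with a covariate, the actin ratio described with the array measures. AT2G20670 itself went to 0.16 with that covariate and AT3G15450 to 0.99. AT3G15630 had 156, 112 and 173 against 77.7, 104 and 26.3 and did not pass (adjusted p = 0.19). BZIP53, a transcription factor of the low-energy response, and AKINBETA1, a subunit of the energy-sensing kinase SnRK1, had differences of 0.25 and 0.15 and did not pass either.

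A further 3 rises came from 2 small plant families, of which the other members were not tallied. AT3G07350, also of the DUF506 family, had 279, 329 and 418 in tetraploids and 135, 128 and 148 in TFE, a difference of 1.302 ± 0.15 (adjusted p = 0.0011). AT5G60680 and AT5G03230 belong to the S40-like family (DUF584), whose founding member is known from leaf senescence in barley. AT5G60680 had 697, 630 and 699 against 300, 351 and 296, with little spread in either group and a difference of 1.101 ± 0.13 (adjusted p = 0.0011). AT5G03230 had 442, 413 and 552 against 220, 240 and 229 and rose by 1.02 ± 0.17 (adjusted p = 0.014). All 3 were still called without TFE replicate 3, with differences of 1.36, 1.06 and 1.02.

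The remaining rises of the 12 were AT1G76600 (1.15), AT5G19120 of the aspartyl protease family (1.14), AT4G05070 of the wound-responsive family (1.05) and AT1G34510, a class III peroxidase (1.02). Without TFE replicate 3 they were 0.88, 0.87, 0.98 and 0.93 in the same order. AT1G34510 had 139, 172 and 194 in tetraploids and 72.5, 106 and 72.7 in TFE, and it was the weakest of them (adjusted p = 0.048), with an adjusted p of 0.12 without TFE replicate 3. AT4G05070 had 424, 324 and 530 against 198, 226 and 185, and its call held without that array (adjusted p = 0.035).

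**Figure D1:**
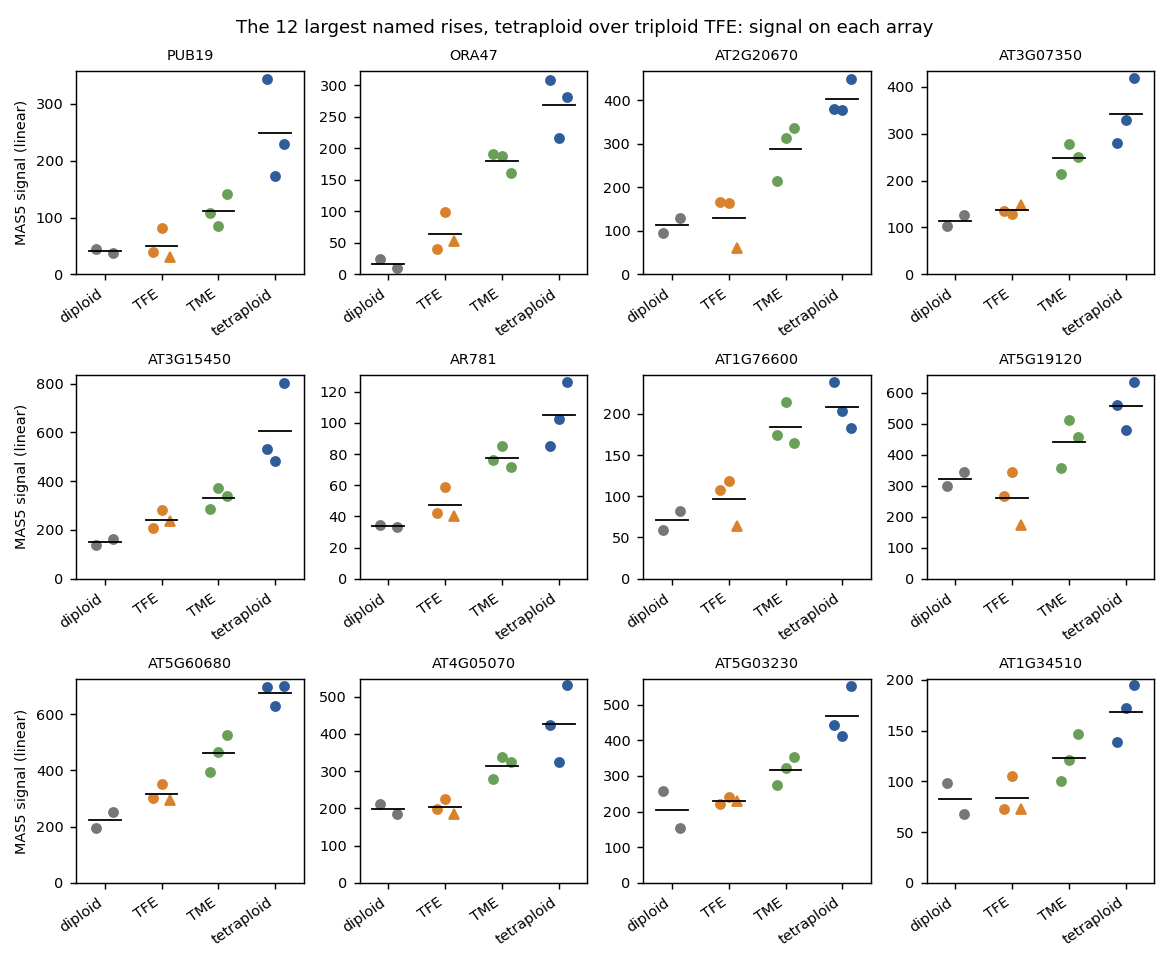
MAS5 signal (linear axis, from 0) of the 12 largest named rises on each of the 11 arrays, by group. Points are arrays, triangles mark TFE replicate 3 and lines are group means: in every panel the 3 tetraploid arrays lie above the 3 TFE arrays, and the TME mean lies between the TFE and tetraploid means.

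The other 11 called rises with a named gene lay between 0.63 and 1.02, and those given here were chosen after their values were seen. AT3G19030 had 668, 743 and 778 in tetraploids and 372, 388 and 322 in TFE, a difference of 1.02 ± 0.11 with the smallest adjusted p among named genes (0.00097). AT3G56880, a VQ-motif protein of the kind that partners WRKY factors, rose by 0.95, AT3G53990, a universal stress protein, by 0.63, and AT1G56220, of the dormancy and auxin-associated family, by 0.64. AT4G26010, a class III peroxidase like AT1G34510, rose by 0.69, and AT1G25550, a GARP-type transcription factor, by 0.63. Without TFE replicate 3 the calls of AT4G26010 and AT1G56220 were lost (adjusted p = 0.083 and 0.091), and those of the other 4 were kept.

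The largest rise of all had no gene name. Probe set 252367_at gave 315, 215 and 297 in tetraploids and 23.9, 39.7 and 18.8 in TFE, which is a 10.4-fold difference (log2 3.38 ± 0.30, adjusted p = 0.00016) and 3.14 without TFE replicate 3. Probe set 256300_at gave 105, 65.4 and 95.3 against 39.8, 8.50 and 7.73. Its difference was 2.66 ± 0.51 (adjusted p = 0.033), the TFE arrays themselves spread widely, and without TFE replicate 3 it missed the threshold (2.24, adjusted p = 0.098). In all, 33 of the 56 higher calls and 4 of the 11 lower calls were unnamed.

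Relative to diploids, the median of the 56 higher calls was 0.19 in TFE, 0.79 in TME and 1.27 in tetraploids, and the TME mean lay between the TFE and tetraploid means for all 56. The TFE mean was above the diploid mean for 45 of them and below it for 11. Against TFE, 4 of the 56 were called in TME, and none was called between tetraploids and TME (limma, 32 of the 56 at an unadjusted p under 0.05). How many of all probe sets were called in these comparisons is not given here, so the counts are descriptions only. The lack of calls does not show that tetraploids and TME were alike, as all 56 were higher in tetraploids (median 0.45). For 51 of the 56, diploid was the group mean nearest to TFE. ORA47, for example, had 23.9 and 10.2 in diploids, dim signals that leave the size of its difference from them uncertain, and 191, 188 and 161 in TME. PUB19 had 44.4 and 38.2 in diploids, which TFE overlapped, and 107, 84.6 and 141 in TME, all of which lay above TFE.

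The comparison of TME with diploids shares none of the 6 arrays, although its test shares the pooled variance. All 56 probe sets were higher in TME than in diploids, where 48.6% of all probe sets were, and in 50 of them the TME and diploid arrays did not overlap, against 11.2% of all. Without TFE replicate 3 the same was true of 44 and 39 of the 46 higher calls. All 56 had a brighter group mean, of tetraploid and TFE, above the median signal, and 50% of all such probe sets were higher in TME. The variance behind the 56 calls included the spread within TME and diploids, so the counts without overlap are descriptions only. The TME and diploid comparison called 18 probe sets higher (0.0791%), and 15 were among the 56, which is 83.3% of the former list and 26.8% of the latter. They included ORA47 (3.52, adjusted p = 0.0003), AT5G60680 (1.05, adjusted p = 0.013) and AT3G07350 (1.11, adjusted p = 0.023). Of the 11 lower calls, 3 were lower in TME than in diploids. Numbers in the array titles follow the same order as these levels, from diploid (1 and 2) through TFE (4 to 6) and TME (7 to 9) to tetraploid (10 to 12), and an effect of processing order cannot be told apart from an effect of the group.

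**Figure D2:**
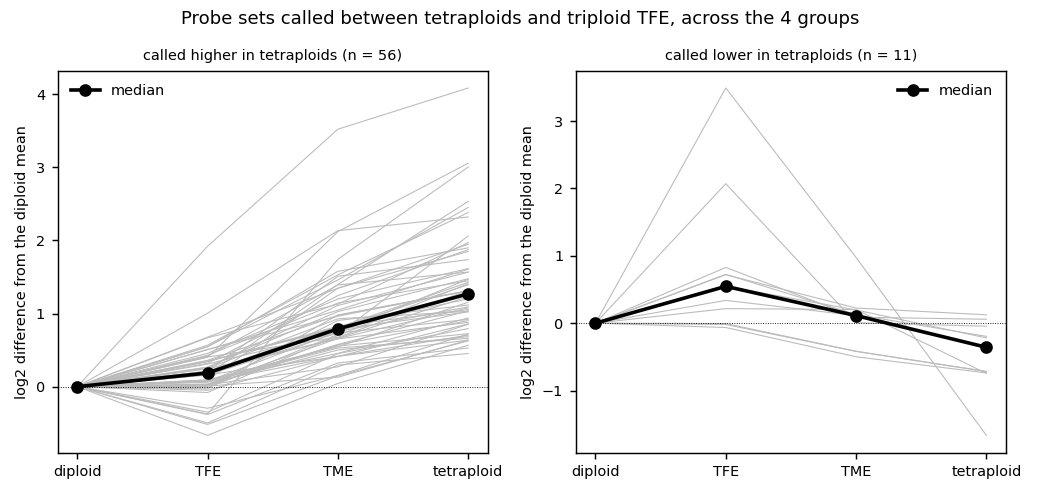
Log2 difference of each group mean from the diploid mean, for the 56 probe sets called higher (left) and the 11 called lower (right) in tetraploids than in TFE. Grey lines are probe sets and black points their median, which runs 0.19, 0.79 and 1.27 on the left for TFE, TME and tetraploids, while on the right TFE stands highest at 0.55 and tetraploids are at -0.36.

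Measures of the arrays themselves differed between the groups too. The 3-prime to 5-prime signal ratio of actin, which rises when RNA is degraded, was 0.559, 0.581 and 0.920 in TFE and 0.403, 0.344 and 0.308 in tetraploids. On each of these arrays the 5-prime signal was the stronger, and whether any RNA was degraded was not tested. The ratios of GAPDH and ubiquitin overlapped. The geometric mean signal of the spiked-in hybridisation controls, bacterial sequences added at a set amount, was 372, 594 and 627 in TFE and 250, 242 and 257 in tetraploids. With the spike level as a covariate no probe set was called (limma, smallest adjusted p = 0.107, with 911 at an unadjusted p under 0.05). The 56 then kept their sign with a median of 1.01, and 54 of them had an unadjusted p under 0.05. With the actin ratio as a covariate again none was called (limma, smallest adjusted p = 0.143, with 2149 at an unadjusted p under 0.05). Their median became 0.65, all 56 kept their sign and 32 had an unadjusted p under 0.05. Each covariate widened the standard errors, by 1.60 and 1.77 times at the median.

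Of the 11 lower calls, 5 were transcripts of the plastid genome. All 5 stood higher in TFE than in any tetraploid array. rps18, a protein of the small plastid ribosomal subunit, had 163, 191 and 154 in tetraploids and 368, 290 and 306 in TFE (-0.92 ± 0.12, adjusted p = 0.0033). rpl33, of the large subunit, had 976, 975 and 859 against 1720, 1545 and 1521 (-0.77 ± 0.11, adjusted p = 0.0057). Both are neighbours in the plastid genome and are transcribed together with psaJ, a small photosystem I subunit, which had 2630, 2558 and 2529 against 2407, 4226 and 3026. The psaJ arrays overlapped and its difference of -0.29 did not pass (adjusted p = 0.58). Whether psaJ differed less than its neighbours was not tested.

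rpl32, also of the large ribosomal subunit, had 554, 516 and 363 against 743, 809 and 849 (-0.77 ± 0.14, adjusted p = 0.027). ndhC, a subunit of the NDH complex that carries electrons back from photosystem I, had 879, 797 and 769 against 1178, 1151 and 1371 (-0.60 ± 0.11, adjusted p = 0.034). The genes next to it, ndhK and ndhJ, had similar differences of -0.72 and -0.78 with wider spread, and did not pass (adjusted p = 0.34 and 0.24). psbN, a small protein needed to assemble photosystem II, had 60.3, 37.5 and 51.0 against 187, 121 and 415. TFE replicate 3 alone made up much of that gap, and the difference moved from -2.11 ± 0.36 (adjusted p = 0.018) to -1.63 without it (adjusted p = 0.049). Without TFE replicate 3, rps18 and rpl33 were also still called, while rpl32 and ndhC missed the threshold (adjusted p = 0.090 and 0.099). With the spike level as a covariate the differences were -1.02 (rps18), -0.82 (rpl33), -0.57 (rpl32), -0.46 (ndhC) and -1.63 (psbN). With the actin ratio they were -0.97, -0.85, -0.35, -0.40 and -0.52 in the same order. None was called with either covariate.

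**Figure D3:**
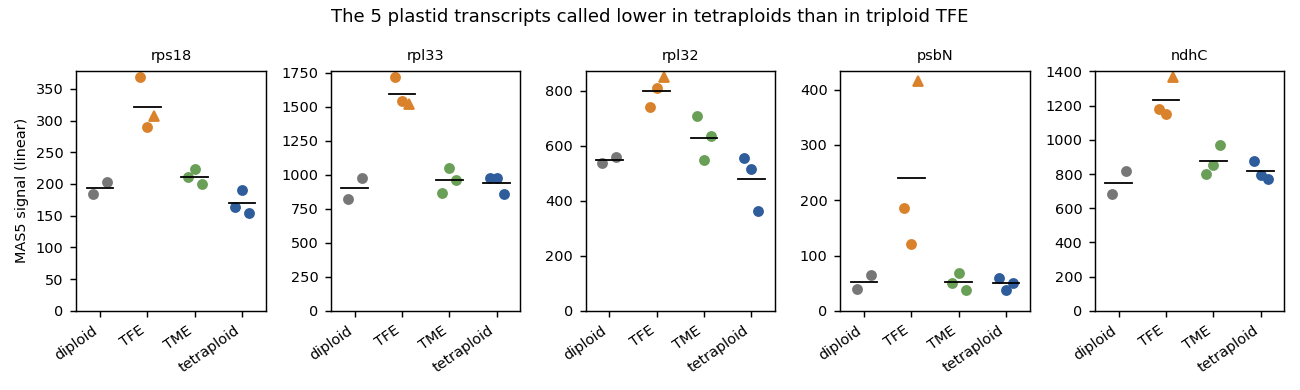
MAS5 signal (linear axes, from 0) of the 5 plastid transcripts called lower in tetraploids than in TFE, on each of the 11 arrays by group. Points are arrays, triangles mark TFE replicate 3 and lines are group means: TFE stands above the tetraploids in each panel, and for psbN replicate 3 lies far above the other TFE arrays.

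Nearly the whole plastid genome pointed the same way. In tetraploids 66 of the 69 measured plastid transcripts were lower, and the median was -0.48 (-0.47 without TFE replicate 3, also 66 of 69), beside -0.05 for all probe sets, but with the spike level as a covariate the median was -0.0012 and 35 of 69 were lower. The arrays did not overlap for 33 of the 69, which is 47.8% where 7.7% of all probe sets were lower with no overlap. The 5 calls are 7.25% of the members, beside 0.0484% of all probe sets, and 3 of the members were called without TFE replicate 3. The 3 members with a positive difference were psbB, a chlorophyll-binding core antenna (0.26), psbE of cytochrome b559 (0.03) and ndhA (0.01). In whole seedlings, fewer plastid-rich cells and less plastid RNA per cell cannot be told apart.

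All 15 ribosomal protein genes were lower, 3 of them called, with a median of -0.58. rps14 had 44.6, 36.3 and 42.5 against 79.0, 106 and 90.0, and its difference of -1.15 just missed the threshold (adjusted p = 0.055). Of the 10 NDH genes 9 were lower and 1 was called, with a median of -0.62. Of 15 photosystem II genes 13 were lower and 1 was called, with a median of -0.44. Among them psbA, which encodes the rapidly replaced D1 protein, had 3197, 1677 and 1958 against 3954, 5229 and 4909 with no overlap, but the spread left it short of a call (-1.09 ± 0.27, adjusted p = 0.13).

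The medians were -0.47 for 6 cytochrome b6f genes, -0.33 for 5 photosystem I genes, -0.27 for 6 ATP synthase genes and -0.23 for 4 genes of the plastid RNA polymerase. None of these 21 transcripts was called, and all 21 were lower in tetraploids. psaI of photosystem I came nearest, with 1796, 1191 and 1538 against 2203, 2797 and 2891 (-0.81 ± 0.17, adjusted p = 0.060). rbcL, the large subunit of Rubisco, had 1197, 478 and 920 against 890, 787 and 1504. Its groups overlapped, and the difference went from -0.33 to -0.05 without TFE replicate 3. With the spike level as a covariate the medians of the ribosomal, NDH and cytochrome b6f genes stayed below 0 (-0.16, -0.14 and -0.17), and those of photosystem I, the ATP synthase and the polymerase were above it (0.24, 0.10 and 0.15).

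**Figure D4:**
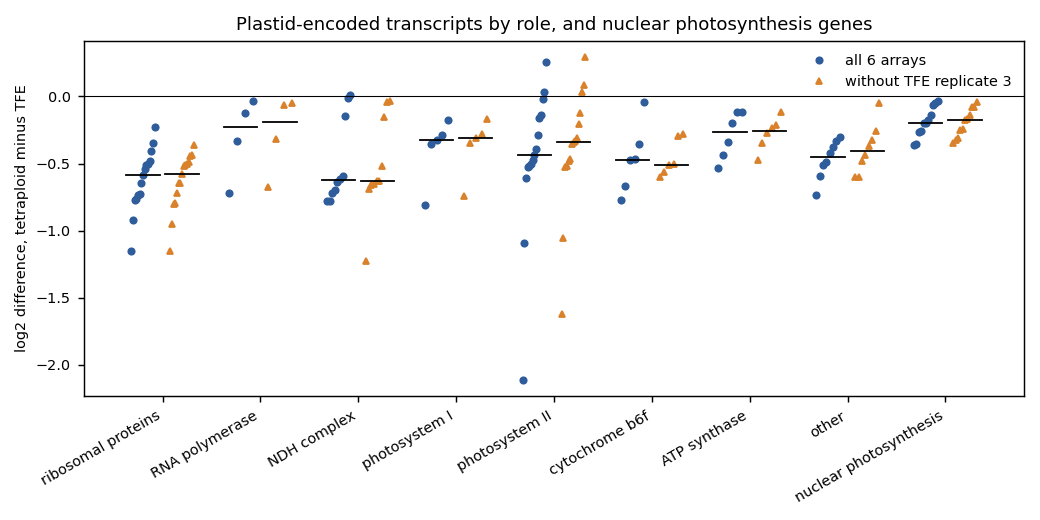
Log2 difference, tetraploid minus TFE, of each plastid transcript by role and of 11 nuclear photosynthesis genes, with all 6 arrays (circles) and without TFE replicate 3 (triangles). Lines are medians: the ribosomal and NDH genes lie lowest (-0.58 and -0.62) and the nuclear genes nearest to 0 (-0.20), and with the spike level as a covariate the plastid median is -0.0012 and the nuclear median 0.10.

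The plastid genome was next followed over all 4 groups. The array level, taken as the median deviation of the 69 transcripts from their mean over the 11 arrays, was 0.20, 0.41 and 0.40 in TFE replicates 1 to 3 and 0.07, -0.25 and -0.14 in the tetraploids. It was 0.17, -0.32 and 0.03 in TME and -0.39 and -0.05 in diploids, so by this measure no array of another group reached the lowest TFE array. By the summed signal of the 69 transcripts, TME replicate 1 (132606) exceeded TFE replicate 1 (128340). Every TFE array lay above every TME array for 26 of the 69, and above every diploid array for 44. The shares of all probe sets that did so are not given here, so these counts are descriptions only. All 69 transcripts had a higher mean in TFE than in diploids (median 0.50), and the median of tetraploid minus TME was -0.05. The TFE arrays also had the highest actin ratios of the series, and TFE replicates 2 and 3 the highest spike levels. On the TME arrays spike levels ran from 272 to 425 and on the diploid arrays they were 157 and 321. With the actin ratio as a covariate the plastid median was -0.20. Each covariate differs between the groups compared, so group and covariate cannot be fully told apart.

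**Figure D5:**
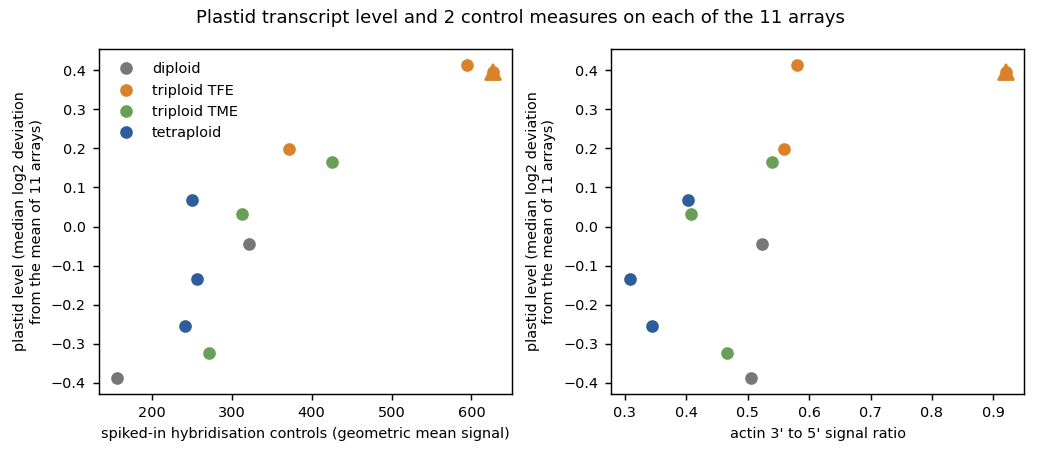
Plastid transcript level (median log2 deviation from the mean of the 11 arrays) against the geometric mean signal of the spiked-in controls (left) and the 3-prime to 5-prime ratio of actin (right), 1 point per array, coloured by group, with a triangle for TFE replicate 3. The TFE arrays lie at 0.20 to 0.41 on the vertical axis with spike signals of 372 to 627 and actin ratios of 0.559 to 0.920, and the tetraploid arrays at -0.25 to 0.07 with 242 to 257 and 0.308 to 0.403.

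Nuclear genes of photosynthesis pointed the same way. Each of the 11 measured had a lower mean in tetraploids and none was called; their median was -0.20 (limma, smallest adjusted p = 0.32), although the median was 0.10 with the spike level as a covariate. With the actin ratio as a covariate it was -0.22, beside -0.20 for the plastid genome, and the difference between the nuclear and plastid lists was not tested. PRK, phosphoribulokinase of the Calvin cycle, had 2600, 2893 and 2780 against 3495, 3412 and 3706, a gap with no overlap (-0.36 ± 0.12, adjusted p = 0.32). RCA had 4959, 4743 and 5328 against 5653, 6778 and 6785 (-0.35 ± 0.16, adjusted p = 0.44). PSAN, a nuclear photosystem I subunit, overlapped between the groups (-0.06).

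The list of falls was completed, by smallest p, with genes that did not pass the test. Among them were 2 nuclear genes whose proteins work in plastids. AT5G28750, a subunit of the thylakoid Tat protein translocase, had 86.6, 117 and 81.7 against 171, 134 and 205 (-0.83 ± 0.17, adjusted p = 0.055). CRR41, which helps to assemble the NDH complex, had 101, 73.4 and 81.5 against 145, 134 and 157 (-0.78 ± 0.17, adjusted p = 0.068). Without TFE replicate 3 the differences of AT5G28750 and CRR41 were -0.69 and -0.72 (limma, adjusted p = 0.12 and 0.14). rps3 of the plastid ribosome (-0.50), AT2G47440 (-0.62) and AT2G44820 (-0.67) had adjusted p-values of 0.060 to 0.079. The unnamed falls were led by probe set 264960_at (-0.96 ± 0.14, adjusted p = 0.0052) with 297, 346 and 255 against 514, 574 and 657, whose TME and diploid arrays lay near TFE, and by 258250_at (-0.71, adjusted p = 0.021, or 0.073 without TFE replicate 3). The largest fall by size, AT1G36480, a pseudogene named here after its values were seen, rests on signals of 0.295 to 0.513 in tetraploids and 7.80 to 37.2 in TFE. These lie at the dim end of the array, so its difference of -5.16 is not a reliable size, and without TFE replicate 3 it missed the threshold (adjusted p = 0.050).

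No member was called in the other gene groups, and their values are descriptions. Cold and abscisic acid genes were all 4 higher in tetraploids (median 0.51, or 0.42 without TFE replicate 3 and 0.045 with the actin ratio as a covariate). LTI30, a dehydrin, had 170, 150 and 192 against 132, 108 and 79.7 with no overlap (0.70 ± 0.17, adjusted p = 0.12), and COR47, another dehydrin, had 834, 853 and 916 against 681, 702 and 563 (0.42 ± 0.11, adjusted p = 0.16). Without TFE replicate 3 their differences were 0.51 and 0.33. HAT2, an auxin-induced homeobox gene, had 160, 144 and 159 against 98.7, 122 and 80.5 (0.64 ± 0.16, adjusted p = 0.14), or 0.49 without TFE replicate 3. Of 4 auxin genes 3 were higher (median 0.66, or 0.42 without TFE replicate 3). GI, the clock gene GIGANTEA, had 420, 344 and 382 against 304, 354 and 216, so its groups overlapped (0.42, adjusted p = 0.35), and without TFE replicate 3 the difference was 0.22. The gibberellin receptors GID1A and GID1B had differences of 0.45 and 0.31 (adjusted p = 0.35 and 0.61), or 0.26 and 0.38 without that array. Of 4 epidermal and guard cell regulators, TRY, SPCH, MUTE and FMA, 2 were higher and 2 lower (median -0.04), and without TFE replicate 3 these were 3 and 1 (median 0.34). The meristem signal CLV3 was dim, at 1.01 to 12.9.

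Of 16 expansins and xyloglucan endotransglucosylases, 8 were higher and 8 lower (median 0.03), while without TFE replicate 3 they were 12 and 4 (median 0.12). EXGT-A3 of the latter family had 323, 332 and 296 against 306, 266 and 222, so its groups overlapped (0.27, adjusted p = 0.42, and 0.15 without TFE replicate 3). EXPA7, an expansin of root hairs, had 49.6, 32.6 and 55.1 against 28.6, 33.2 and 7.79. TFE replicate 3 set much of its difference, which was 1.196 with that array and 0.53 without it. Of 4 cell cycle genes 3 were lower with a median of -0.03, and their sign changed under other scalings. Of 11 histone genes 6 were lower, and the median went from -0.35 to -0.08 without TFE replicate 3. Flavonoid genes had a median of -0.23 over 7 members, which became 0.12 without that array. The 5 heat shock genes had signals of 0.573 to 55.5 and a median of -0.47, or -0.33 without TFE replicate 3 and 0.14 with the spike level as a covariate. Of 16 mitochondrial transcripts 13 were lower (median -0.37, or -0.23 without TFE replicate 3), but the median was 0.10 with the spike level and 0.31 with the actin ratio as a covariate. Of 3 genes of DNA methylation and imprinting, the demethylase DME had 90.0, 106 and 102 against 115, 87.4 and 190, so its groups overlapped (-0.32, adjusted p = 0.60), and without TFE replicate 3 the difference was -0.015.

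No nuclear chromosome stood apart from the others as a whole. Over 6325 nuclear probe sets with a single gene and a signal above the median, the median difference of each of the 5 nuclear chromosomes lay within -0.0062 and 0.0063 of that of all of them, and within -0.025 and 0.014 without TFE replicate 3. Array by array these deviations ran from -0.040 to 0.031 in tetraploids and from -0.032 to 0.030 in TFE. The 23 named rises, among these 6325 probe sets, lay on all 5 nuclear chromosomes. There were 8 of 1623, 3 of 926, 6 of 1305, 3 of 936 and 3 of 1535 on chromosomes 1 to 5. Differences between these shares were not tested.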

How the data were processed

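Affymetrix ATH1 arrays of 11 samples were read as intensity, and the deposited table holds MAS5 signals on a linear scale. MAS5 is named without a version in the submitters' processing notes. After trimming 2% from either end, every array averaged 100.01. Precision is limited by how many arrays there are. No 2 arrays were identical.

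The 64 control probe sets were set aside. Log2 signals of 22746 probe sets were fitted, with no floor and no filter, in limma 3.58.1 (R 4.3.3). The model held 4 group means and all 11 arrays, variances were moderated along an intensity trend, and the test was the 2-sided contrast of tetraploid minus triploid TFE with Benjamini-Hochberg adjustment over all probe sets. An exact permutation test of 3 against 3 arrays cannot go below 0.1 and was not used. Replicate numbers did not pair the samples: deviations of same-numbered arrays correlated at -0.0435, 0.0432 and 0.0844.

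Genes were named by the platform's annotation, updated with the TAIR10.1 gene table: 13513 probe sets had 1 gene, of which 13436 matched the table, 503 had several and 8730 none. No build is stated for the array, and coordinates are left out. Named genes were the 12 largest called rises and falls with 1 gene, no overlap between arrays and a brighter group mean above the median signal of 44.6, filled by smallest p, plus up to 3 called members, or the 2 of smallest p, of each of 23 gene lists and of the plastid and mitochondrial genomes, plus ORA47, EXGT-A3 and rpl33. Other genes are examples of their list. The groups, lists and genes were chosen with earlier results of these data known. No gene of the salicylate, cellulose, flower and seed storage lists was measured under its name. Alternatives covered filters, a pseudocount, normalization, variance models, weights, covariates and leaving out each array.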

Additional observations from a re-analysis of the deposited data

How the results depend on the processing

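The number of calls was 67 and lay between 49 and 90 with a floor and filter, a stricter filter (90), a pseudocount of 16, quantile normalization, robust variances, array weights and no TFE replicate 3. It was 27 with each array centred on its median, 30 with only the 6 arrays compared, and 0 with no intensity trend (limma, 2044 at an unadjusted p under 0.05). It was also 0 with the spike level as a covariate (911 at an unadjusted p under 0.05) and 0 with the actin ratio (2149). The last of these was chosen after seeing the data, as were a floor and filter with no trend (3 calls) and a floor and filter without TFE replicate 3 (76 calls). Leaving out 1 array at a time gave 13 to 101 calls, and 13 of the 67 were called without each of the 6 arrays compared. With the replicate number as a block there were 72 calls, 64 of them shared. The plastid median of -0.48 moved to -0.0012 with the spike level and to -0.20 with the actin ratio, and ran from -0.56 to -0.38 with arrays left out. Among the 17 named genes called, 289 of 425 values under the alternatives kept their call and 136 missed the threshold. None changed direction, which was fixed in advance where an array was left out, because the arrays of these genes did not overlap. The 425 include settings without a diploid or TME array, which left the 6 arrays compared as they were. Without 1 of the 6 arrays compared, 5 to 15 of the 17 kept their call. Why the calls depend on the variance trend was not tested. With 3 arrays a group, and without detection calls, dim probe sets cannot be judged.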
